A study of Mus musculus with 4 samples.

Results

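Healing of an infarcted heart depends on fibroblasts that leave their resting state, multiply, secrete collagen-rich matrix and contract it, and that later settle in the mature scar as quieter cells termed matrifibrocytes, which carry genes better known from cartilage and tendon. The 9 genes described here, of 32285 in the gene table, were chosen by symbol as markers of these stages. Cthrc1 encodes a secreted protein that accompanies collagen production in activated fibroblasts, Fap a membrane-bound serine protease, and Meox1 a homeobox transcription factor linked to fibroblast activation. Col12a1 and Col16a1 encode collagens that attach to the surface of fibrils, and Col8a1 a short-chain, network-forming collagen. Comp, Chad and Cilp2 encode matrix proteins of cartilage and tendon. The activated state is classically driven by TGF-beta signalling and by mechanical tension, and the resting state is marked by genes such as Dcn and Pdgfra.

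RNA was measured by Visium spatial transcriptomics, in which each barcoded spot on a slide captures the RNA of the several cells above it, and each captured molecule is counted once by its unique molecular identifier (UMI). The data were 4 sections of fresh-frozen heart, 1 from 1 ICR mouse for each of day 1, 4, 7 and 14 after a myocardial infarction (MI) made by tying off the LAD, a main artery of the left ventricle, for good. All 4 mice were adults of 12 weeks with this operation, no unoperated heart was analysed here, and with 1 mouse per day a difference between days cannot be told apart from a difference between mice. Spots with more than 1% of their UMIs from hemoglobin genes were removed, which left 7503 of 9102 spots, and in each section the 15% of spots with the smallest share of UMIs from Myh6 and Myl2, which encode cardiomyocyte myosin chains, formed the low-cardiomyocyte class (1126 spots, 252 to 313 per section). These spots are called low spots, and the remaining 1427 to 1773 per section other spots.

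Neither class held the same tissue on every day. The largest Myh6+Myl2 share among the low spots was 0.818%, 0.238%, 0.254% and 1.43% on days 1, 4, 7 and 14, and 8 other cardiomyocyte genes summed to 25397, 3946, 7443 and 13428 UMIs per 1000000 UMIs (CPM) in them on those days. Low spots held 475126 to 1522555 UMIs per section and other spots 8299403 to 15238653. Among the other spots the smallest Myh6+Myl2 share was 0.820%, 0.241%, 0.256% and 1.44% on days 1, 4, 7 and 14. They held 1641, 15980, 13179 and 1254 UMIs of the collagen gene Col1a1 on these days. Ratios of low over other spots on different days thus did not compare the same tissue. Low spots had fewer UMIs per spot at the median in every section, and on day 14 their median was 1152 UMIs against 8838, with 138 of 313 low spots under 1000 UMIs. Fast skeletal muscle genes, which do not belong to the heart wall, summed to 25824 CPM in the low spots of day 7 and to between 4.67 and 69.5 CPM in those of the other days, and 82 of the 277 low spots of day 7 had at least 10 such UMIs. Adipocyte genes summed to 382 CPM in the low spots of day 1 and 269 CPM in those of day 7, and on day 14 all 5 of them were at 0 there. Mesothelium genes reached 209 CPM on day 7 and 189 CPM on day 14. A higher UMI share in a spot may come from more cells of a type or from more RNA per cell, which cannot be told apart. Intervals below are exact at 95% and cover counting error only.

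All 9 genes had a single position on GRCm38, the build named mm10 in the labels. Comp (chromosome 8, 70373558 to 70382066) and Cilp2 (chromosome 8, 69880369 to 69887687) lie on the same chromosome, as do Chad (chromosome 11, 94565047 to 94569127) and Meox1 (chromosome 11, 101877510 to 101894374). Cthrc1 lies on chromosome 15, from 39076932 to 39087121. Chad lies wholly within Acsf2, which is on the opposite strand, so a Chad count could hold Acsf2 reads if strand were not used in counting. Promoters of 4 members were in the RefSeq table used here. The 250 bases before the annotated start of Col8a1 and of Chad are shown, 1 gene of the activated fibroblast and 1 of the mature scar, on the strand of the gene, with matches to 5 motifs in capitals.
Col8a1, chr16:57754738-57754987, minus strand: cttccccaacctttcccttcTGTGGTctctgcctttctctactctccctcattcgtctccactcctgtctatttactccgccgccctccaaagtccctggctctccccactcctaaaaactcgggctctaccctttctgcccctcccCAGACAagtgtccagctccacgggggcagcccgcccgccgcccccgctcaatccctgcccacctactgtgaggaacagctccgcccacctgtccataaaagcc
Chad, chr11:94564797-94565046, plus strand: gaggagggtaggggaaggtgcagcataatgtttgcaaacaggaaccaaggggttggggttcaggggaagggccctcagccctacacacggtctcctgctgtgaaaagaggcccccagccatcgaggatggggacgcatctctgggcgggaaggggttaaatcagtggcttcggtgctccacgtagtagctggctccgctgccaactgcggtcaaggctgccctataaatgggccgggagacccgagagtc
The motifs were searched as the letters GGAATG (TEAD), CAGACA (SMAD), TGANTCA (AP-1), ACAATGG (SOX) and TGTGGT (RUNX) on both strands. The Col8a1 stretch held a CAGACA match from 103 to 98 bases before the start and a TGTGGT match from 230 to 225 bases before it. These letters occurred in 17.1% and 14.0% of the 32851 promoter stretches of the same length. The Chad stretch held none of the 5 strings, and neither did those of Cilp2 and Col16a1.

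Cthrc1 was low on day 1, high on days 4 and 7 and lower again on day 14. In low spots it had 10.7, 579, 401 and 202 CPM on days 1, 4, 7 and 14, from 16, 882, 398 and 96 UMIs. In other spots it had 2.30, 68.1, 53.4 and 1.25 CPM on the same days. The level in low spots was thus above that in other spots in every section, by 4.65-fold (interval 2.31 to 9.13), 8.50-fold (7.73 to 9.35), 7.51-fold (6.54 to 8.61) and 162-fold (98.3 to 281) on the same days. When the 82 low spots of day 7 with skeletal muscle genes were left out, the remaining 195 had 643 CPM (580 to 712). Day 4 had 579 CPM (542 to 619). These intervals overlap, and no order of days 4 and 7 is then given. Between day 4 and day 14 the level in low spots differed by a log2 ratio of -1.52, and that in other spots by -5.77. The other spots held 874 Cthrc1 UMIs on day 4 and 19 on day 14, and their smallest Myh6+Myl2 share was 0.241% and 1.44%. Among low spots Cthrc1 was detected in 205 of 252 on day 4 and in 68 of 313 shallower spots on day 14.

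**Figure D1:**
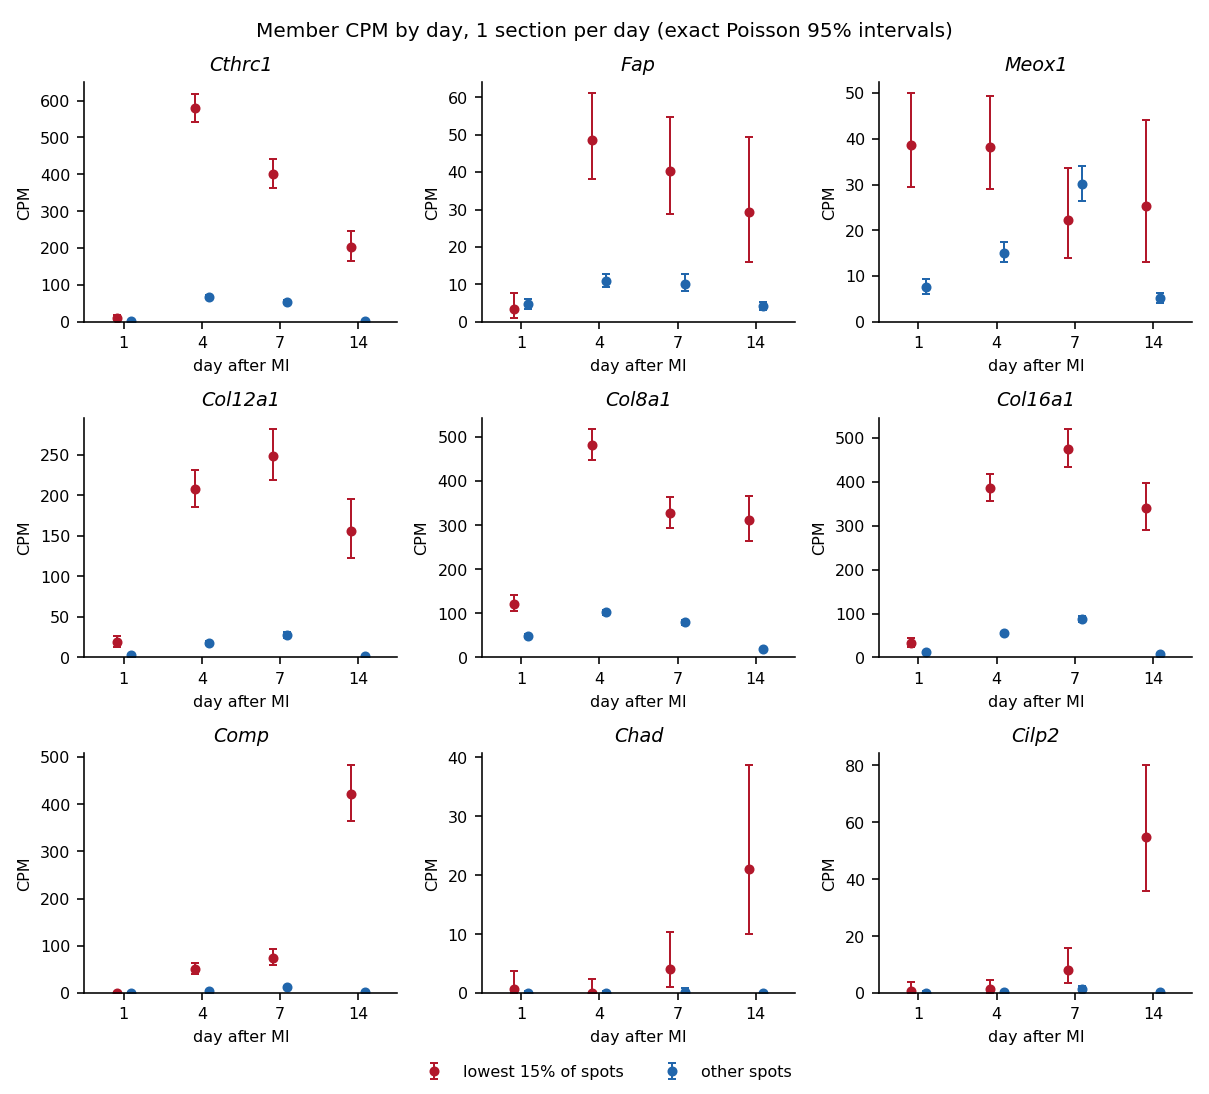
Level of each of the 9 genes in UMIs per 1000000 UMIs (CPM, linear axes from 0, a scale of its own per gene) on days 1, 4, 7 and 14 after MI, in the 15% of spots with the lowest Myh6+Myl2 share (red) and the other spots (blue) of 1 section per day. Points are sums over spots and bars exact Poisson 95% intervals: Cthrc1 had 579 CPM on day 4, and Comp was highest on day 14 at 421 CPM.

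Fap had 3.34, 48.6, 40.3 and 29.5 CPM in the low spots of days 1, 4, 7 and 14, from 5, 74, 40 and 14 UMIs. In other spots it had 4.69, 10.9, 10.2 and 4.20 CPM. Low spots exceeded other spots by 4.45-fold on day 4 (3.31 to 5.94), 3.93-fold on day 7 (2.63 to 5.79) and 7.02-fold on day 14 (3.63 to 12.6), while the day 1 ratio of 0.712 had an interval of 0.221 to 1.78 that includes 1. The intervals of days 4, 7 and 14 in low spots overlapped, which by itself does not exclude an order, and none is given. The 195 low spots of day 7 without skeletal muscle genes had 59.7 CPM of Fap (41.6 to 83.1), against 12.3 CPM in the 82 with them.

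Meox1 showed no rise from day 1 to day 4 in low spots, unlike Cthrc1 and Fap. It had 38.7, 38.1, 22.1 and 25.3 CPM there on days 1, 4, 7 and 14, from 58, 58, 22 and 12 UMIs. In other spots it had 7.56, 15.1, 30.1 and 5.12 CPM, so its highest level outside the low class was on day 7. Low spots exceeded other spots 5.12-fold on day 1 (3.59 to 7.28), 2.52-fold on day 4 (1.85 to 3.39) and 4.93-fold on day 14 (2.45 to 9.12). On day 7 the ratio was 0.735 (0.453 to 1.14), and the 195 low spots without skeletal muscle genes had 29.0 CPM (16.9 to 46.5) against 12.3 CPM in the 82 with them. When spots rich in skeletal muscle, adipocyte or mesothelium genes were removed and the lowest 15% drawn anew, the ratio was 1.46 (0.967 to 2.12), so no direction on day 7 was detectable.

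The 3 collagens were measured with more UMIs. Col12a1 had 18.7, 208, 249 and 156 CPM in low spots on days 1, 4, 7 and 14, and 3.16, 17.9, 28.0 and 1.25 CPM in other spots. Col8a1, already abundant on day 1, had 122, 482, 327 and 311 CPM in low spots against 48.7, 102, 79.5 and 18.5 CPM in other spots. Col16a1 had 32.7, 386, 475 and 341 CPM in low spots against 11.6, 54.9, 86.8 and 8.92 CPM in other spots. Each of them was higher in low than in other spots on every day with an interval above 1. Over all 9 members the interval lay above 1 for 5, 7, 8 and 9 of them on days 1, 4, 7 and 14, beside 42.1%, 63.3%, 42% and 51.4% of the 11621 genes with at least 100 UMIs. The ratio was widest on day 14, at 125-fold for Col12a1 (74.7 to 219), 38.2-fold for Col16a1 (30.2 to 48.3) and 16.8-fold for Col8a1 (13.7 to 20.6). The other spots of day 14 also held the fewest Col1a1 UMIs of the 4 days, at 1254. The part of this in the widths was not tested. Over all low spots, Col8a1 was higher on day 4 than on day 7 (ratio of day 7 to day 4 0.679, 0.594 to 0.774), whereas Col12a1 and Col16a1 were higher on day 7 (1.20, 1.01 to 1.42, and 1.23, 1.09 to 1.39). The day 7 low spots without skeletal muscle genes had 505 CPM of Col8a1 (449 to 566), 384 CPM of Col12a1 and 736 CPM of Col16a1, against 71.2, 54.0 and 101 CPM in the 82 low spots with them. Beside the 482 CPM of Col8a1 on day 4 (448 to 518), no order of these days was then detectable for it. Col12a1 and Col16a1 stayed higher on day 7.

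The cartilage and tendon genes differed in time from the genes above. Comp had no UMI in the low spots of day 1, with an exact upper bound of 2.46 CPM, and 3 UMIs there would be 2.00 CPM. It had 50.6 CPM on day 4 (77 UMIs), 74.5 CPM on day 7 (74 UMIs) and 421 CPM on day 14 (200 UMIs), the highest of the 4 days. In other spots it had 0.861, 5.22, 13.3 and 2.62 CPM. The day 14 level in low spots was 8.32-fold that of day 4 (6.37 to 11.0) and 5.65-fold that of day 7 (4.31 to 7.48). Over day 1 the lower limit of the exact interval was 169-fold, and counting 3 UMIs for the 0 of day 1 gave 210-fold. On day 1 the other spots held 9 UMIs and the low spots 0, a ratio with an upper bound of 3.54. Low spots exceeded other spots 9.68-fold on day 4 (6.89 to 13.6), 5.62-fold on day 7 (4.13 to 7.62) and 160-fold on day 14 (114 to 231). The 195 low spots of day 7 without skeletal muscle genes had 116 CPM of Comp (90.1 to 147), against 14.7 CPM in the 82 with them.

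The size of the day 14 values depended on the choice of spots, and the cause was not tested. When only spots with at least 1000 UMIs were ranked, the low class of day 14 had 112 CPM of Comp and 66.1 CPM of Cthrc1, and with the lowest 20% of spots 185 and 86.7 CPM. In the former class Col12a1, Col8a1 and Col16a1 had 53.6, 119 and 108 CPM on day 14. The day 14 ratio of low over other spots was then 68.1-fold for Cthrc1, 70.3-fold for Comp, 48.3-fold for Col12a1, 12.6-fold for Col16a1 and 7.11-fold for Col8a1. Comp stayed higher on day 14 than on day 4 in both cases, with log2 ratios of 1.15 and 1.98 against 3.06 with all spots and 15%. The 112 CPM of day 14 was not above the 116 CPM of Comp in the day 7 low spots without skeletal muscle genes. These 2 values come from different choices of spots, so they give no order of days 7 and 14. Over all low spots Comp had 74.5 CPM on day 7 and 421 CPM on day 14. The latter value was the same with skeletal muscle spots left out.

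Cilp2, a relative of the cartilage intermediate layer protein, had 1, 2, 8 and 26 UMIs in the low spots of days 1, 4, 7 and 14, which is 0.668, 1.31, 8.05 and 54.7 CPM. Other spots held 2, 4, 12 and 5 UMIs. On day 14 the level in low spots was 6.79-fold that of day 7 (2.99 to 17.4) and 167-fold that of other spots (63.0 to 556). Chad, which encodes the cartilage protein chondroadherin, had 1, 0, 4 and 10 UMIs in low spots and 0, 0, 2 and 0 in other spots. Its 10 UMIs on day 14 lay in 10 different low spots and gave 21.0 CPM (10.1 to 38.7), 5.23-fold the 4.03 CPM of day 7 (1.51 to 22.8). Over the other spots of day 14 the lower limit of the exact interval was 71.9-fold, and counting 3 UMIs for their 0 gave 107-fold. All 3 genes of this group were thus highest in the low spots of day 14, with Cilp2 and Chad resting on few UMIs.

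The balance between Comp and Cthrc1 differed between days. Comp UMIs per Cthrc1 UMI in low spots, a ratio that compares the same pair of genes between days, were 0.0873 on day 4 (0.0682 to 0.110), 0.186 on day 7 (0.143 to 0.239) and 2.08 on day 14 (1.63 to 2.69). On day 1 the ratio was 0 against 16 Cthrc1 UMIs, with an upper bound of 0.259. The day 14 interval lay above the other 3. In the low spots of day 14, 18 of the 68 spots with Cthrc1 and 18 of the 103 with Comp held both. In those of day 4, with a median of 5901.5 UMIs per spot, 52 of the 205 spots with Cthrc1 and 52 of the 62 with Comp did. The low spots of day 14 had a median of 1152 UMIs, and such counts depend on how often each gene is detected. No expected overlap was computed, so the counts do not show whether the 2 genes lay in different spots.

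**Figure D2:**
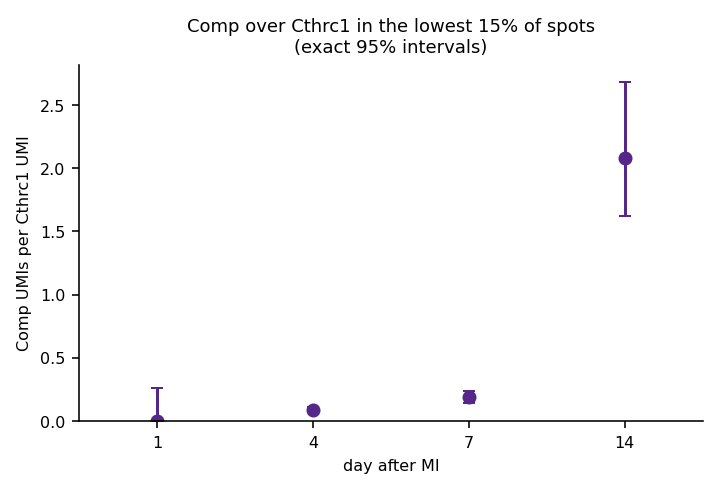
Comp UMIs per Cthrc1 UMI (linear axis from 0) in the 15% of spots with the lowest Myh6+Myl2 share on days 1, 4, 7 and 14, 1 section per day, with exact 95% intervals of counting error. The ratio was 2.08 on day 14 and at most 0.186 on the other days.

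The low spots were compared with the other spots over the 4 sections by edgeR on summed UMIs, with the section as a block, for the 11621 genes with at least 100 UMIs. The fit asks which genes differ between the 2 classes on average over the sections. Of the 7 members that could be tested, 5 rose in low spots, beside 19.3% of all tested genes that did so and 17.8% that fell. Col12a1 was higher by a log2 fold change of 3.19 (SE 0.57, adjusted p = 0.0064), Comp by 3.04 (0.92, 0.0356), Cthrc1 by 2.99 (0.71, 0.0153), Col16a1 by 2.25 (0.49, 0.0107) and Col8a1 by 1.67 (0.36, 0.0106). Fap had 1.08 (SE 0.38, adjusted p = 0.0559) and Meox1 0.64 (SE 0.42, adjusted p = 0.264), and neither passed the threshold of 0.05. The median over the 7 was 2.25 beside 0.09 over all genes. Chad and Cilp2 had 17 and 60 UMIs in all and were too sparse for this test. When genes with 10 UMIs were admitted, Cilp2 passed with 3.16 (SE 0.92, adjusted p = 0.0296), while Comp no longer did (2.94, adjusted p = 0.0811). Chad, with 15 of its 17 UMIs in low spots, could enter only through the class where it was high, and no test of it is given.

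The call of Comp was the least firm. Its log2 fold change was 3.36 without day 1, 3.31 without day 4 and 3.50 without day 7, with adjusted p of 0.0588, 0.11 and 0.0861, and 2.14 by DESeq2 with adjusted p of 0.203. Cthrc1 missed the threshold without day 1 (3.26, adjusted p = 0.0512), without day 7 (3.25, adjusted p = 0.0508) and without the section block (2.55, adjusted p = 0.157), and Col16a1 missed it without the block (2.25, adjusted p = 0.0605). With total UMIs in place of the TMM scaling, the median over all genes was 0.80, 5774 genes rose and 961 fell in place of 2244 and 2072, and all 7 tested members rose.

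**Figure D3:**
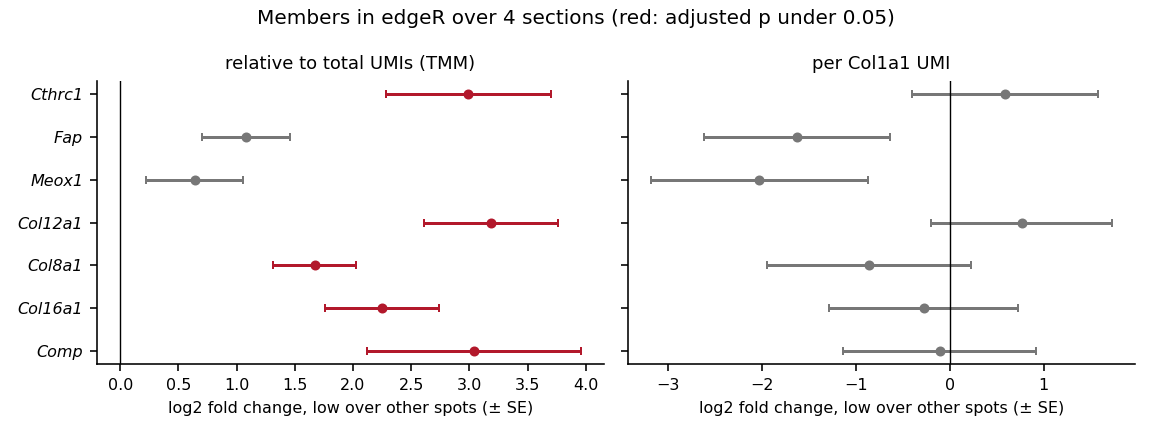
Log2 fold change of low over other spots (x axis, bars ± SE from edgeR over 4 sections) for the 7 members with at least 100 UMIs, relative to total UMIs with TMM (left) and per Col1a1 UMI (right). Red marks an adjusted p under 0.05: 5 members on the left, and no member on the right.

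Set against Col1a1, the main collagen of the scar, the members parted into those that went with it and those that did not. Col1a1 itself had 357, 10826, 10896 and 5418 CPM in low spots on days 1, 4, 7 and 14. Per 1000 Col1a1 UMIs in low spots, Cthrc1 had 29.9, 53.5, 36.8 and 37.3 UMIs on the same days. Its ratio of low over other spots was 2.04 on day 1 (1.02 to 4.01), 0.978 on day 4 (0.89 to 1.08) and 1.09 on day 7 (0.953 to 1.26), so a difference from Col1a1 was not detectable on days 4 and 7, and 2.46 on day 14 (1.49 to 4.27). Col12a1 had 52.3, 19.2, 22.8 and 28.7 UMIs per 1000 Col1a1 UMIs in low spots, and its low over other ratio was above 1 on all 4 days, from 1.296 on day 7 (1.08 to 1.56) to 2.60 on day 1 (1.52 to 4.44).

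Comp had 0, 4.67, 6.84 and 77.7 UMIs per 1000 Col1a1 UMIs in low spots on days 1, 4, 7 and 14. The day 14 value was 16.6-fold that of day 4 (12.7 to 21.9) and was 59.5 when only spots with at least 1000 UMIs were ranked, so on this scale the day 14 level moved less with the choice of spots than in CPM. In other spots Comp also had its highest value on day 14, at 31.9 against 5.48, 4.19 and 8.35 on the earlier days. In CPM it was lower there on day 14 (2.62) than on days 4 and 7 (5.22 and 13.3). The Col1a1 UMIs of other spots were 1254 on day 14 against 15980 and 13179 on days 4 and 7. Fap, Meox1, Col16a1 and Cilp2 also had their highest value on this scale in the other spots of day 14. Col8a1 and Col12a1 had theirs on day 1, Cthrc1 on day 4 and Chad on day 7. Cilp2 had 1.87, 0.121, 0.739 and 10.1 UMIs per 1000 Col1a1 UMIs in low spots. Its day 14 value was 13.7-fold that of day 7 (6.01 to 34.9).

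Fap, Meox1, Col8a1 and Col16a1 were lower relative to Col1a1 in low than in other spots on days 4, 7 and 14. On day 14 the low over other ratio was 0.0750 for Meox1 (0.0371 to 0.138), 0.107 for Fap (0.0552 to 0.192), 0.256 for Col8a1 (0.208 to 0.313) and 0.580 for Col16a1 (0.459 to 0.734). Counted over all 9 members, the interval of the ratio per Col1a1 UMI lay above 1 for 3, 1, 1 and 4 members and below 1 for 1, 4, 4 and 4 members on days 1, 4, 7 and 14. Of the 11621 genes with at least 100 UMIs, 5.27%, 1.03%, 0.637% and 0.232% lay above 1 on these days, and 54.1%, 93%, 93% and 98.1% below 1. In the edgeR comparison with Col1a1 UMIs as library size, 39.4% of all tested genes were called, 4573 lower and 1 higher, and 0 of the 7 tested members. Log2 fold changes ran from -2.02 for Meox1 (SE 1.15, adjusted p = 0.107) and -1.62 for Fap (SE 0.99, adjusted p = 0.129) through -0.86 for Col8a1, -0.28 for Col16a1 and -0.11 for Comp to 0.59 for Cthrc1 and 0.76 for Col12a1, with a median over all genes of -2.40. This comparison has no firm background, since it called 0 genes without day 4 or without day 7 and 8025 without day 1.

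**Figure D4:**
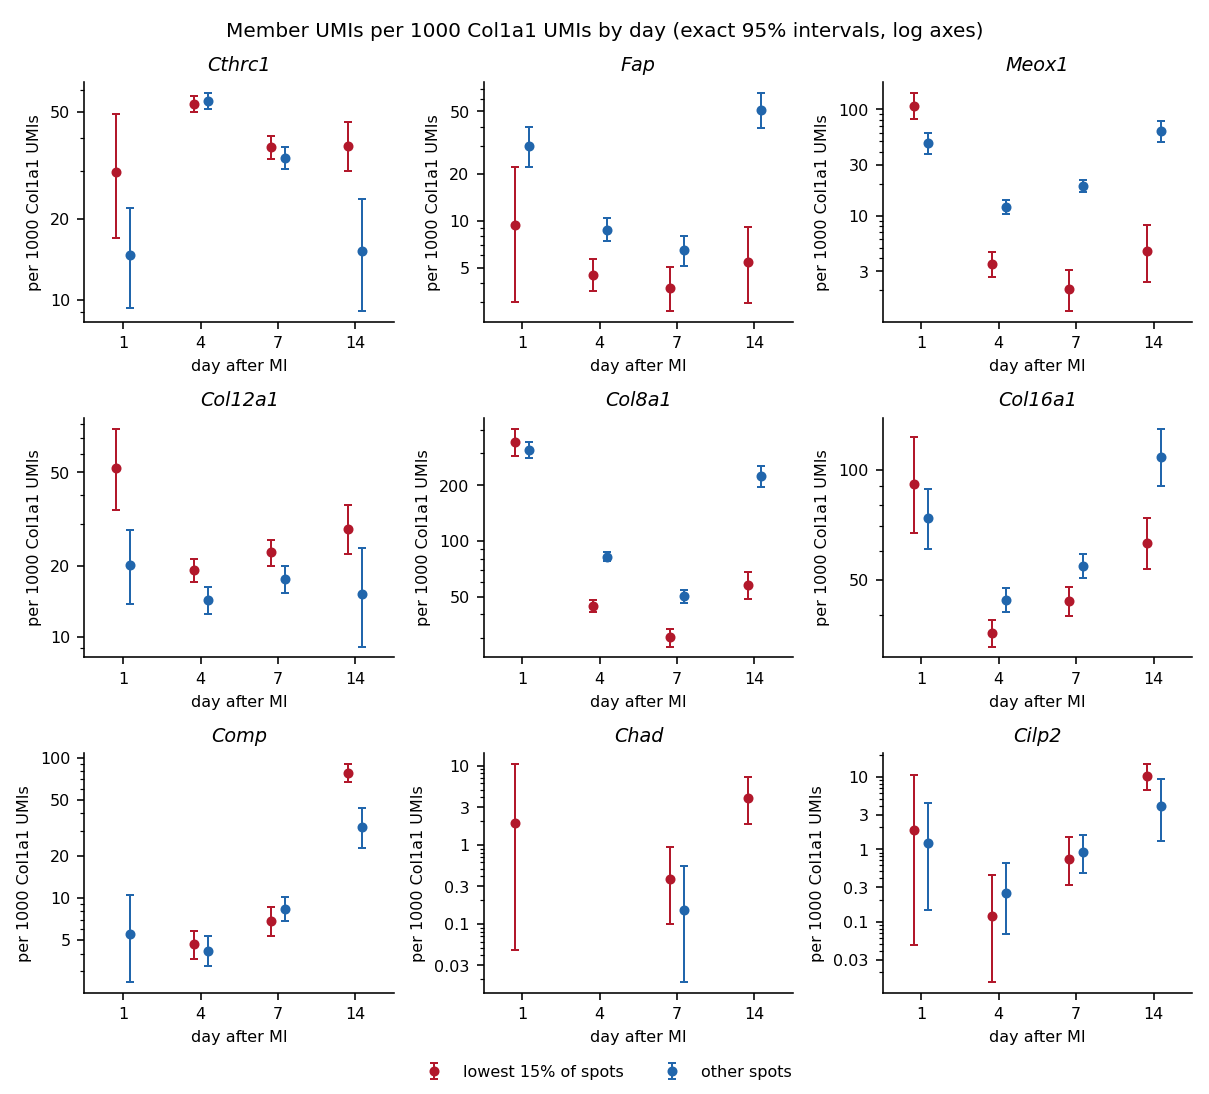
UMIs of each of the 9 genes per 1000 Col1a1 UMIs (log axes, a scale of its own per gene) on days 1, 4, 7 and 14, in the lowest 15% of spots by Myh6+Myl2 share (red) and the other spots (blue), with exact 95% intervals; sums of 0 UMIs are not drawn. Comp lay above its earlier values on day 14, at 77.7 in low and 31.9 in other spots, and Meox1 lay lower in low than in other spots on days 4, 7 and 14. Other spots held 1254 Col1a1 UMIs on day 14 against 15980 and 13179 on days 4 and 7.

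A finer division placed the members differently along the gradient from scar to muscle. The kept spots of each section were cut into 10 equal bins by their Myh6+Myl2 share, bin 1 being the lowest. A bin did not hold the same tissue on every day. The median share in bin 2 was 0.818%, 0.240%, 0.256% and 1.44% on days 1, 4, 7 and 14. In bin 3 it was 1.08%, 0.653%, 0.720% and 1.94%. On day 14 several members were narrowly placed, and bin 1 held 68.7% of Cthrc1 UMIs, 62.4% of Col12a1, 58.1% of Cilp2, 56.3% of Comp and 54.6% of Col1a1 UMIs, and bins 1 and 2 together held 90.0% of Comp and 87.8% of Cthrc1. Col8a1 was spread more widely, with 43.5% in the same bins, and Fap with 24.4%. On days 4 and 7, Cthrc1 reached into bin 3, at 292 and 354 CPM, and had 79.9 and 42.0 CPM in bin 4.

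Meox1 was highest in bin 3 on both of these days. On day 7 it had 24.2 CPM in bin 1, 29.1 CPM in bin 2, 134 CPM in bin 3 and 54.8 CPM in bin 4. On day 4 the values were 35.3, 61.0, 71.8 and 24.6 CPM. On day 7 its maximum therefore lay in spots with an intermediate cardiomyocyte share. On day 4 bins 2 and 3 were close, from 63 and 91 UMIs, and no interval was computed for bins. On days 1 and 14 Meox1 was highest in bin 1, at 39.8 and 19.6 CPM, the latter from 6 UMIs. The low spots of day 7 without skeletal muscle genes, at 29.0 CPM, were also below bin 3. Among the bins of day 7, Col8a1 had its highest value in bin 3, at 411 CPM, and Col12a1 and Col16a1 in bin 2, at 297 and 620 CPM. These bins still held the skeletal muscle spots. The day 7 low spots without skeletal muscle genes had more of each, at 505 CPM of Col8a1, 384 CPM of Col12a1 and 736 CPM of Col16a1. The place of the highest level of these collagens on day 7 is therefore not settled by the bins.

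**Figure D5:**
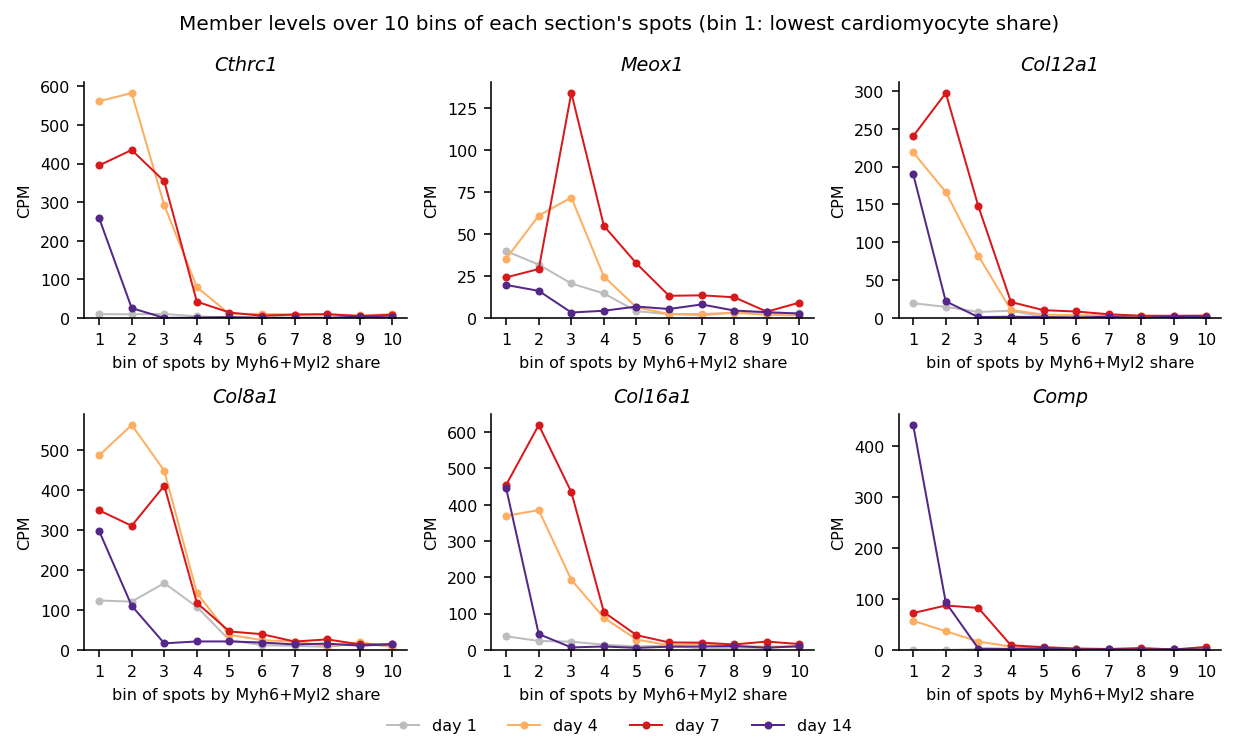
CPM (linear axes from 0) of 6 members in the 10 bins of each section's spots ordered by Myh6+Myl2 share, bin 1 being the lowest, with 1 line per day. Meox1 peaks in bin 3 on day 7 at 134 CPM, whereas Comp on day 14 is highest in bin 1 at 442 CPM.

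Likeness between genes was described over the 40 bin sums, 10 from each section, by Pearson's r of log2(CPM + 1) with 4765 other genes of at least 1000 UMIs. The sums share the library of their section, the ordering of spots and its gradient of cardiomyocyte RNA. Cthrc1 was most like Col1a1 (r = 0.98) and Col1a2 (0.97), Col16a1 most like Sparc (0.98) and Col1a2 (0.98), and Col12a1 most like Sparc (0.98) and Fn1 (0.98). Col8a1 was most like Vim (0.97) and Fstl1 (0.97). Meox1 was most like the basement membrane collagens Col4a1 (0.94) and Col4a2 (0.93), Fap most like Apoe (0.94) and Thbs2 (0.93), and Comp most like Timp2 (0.93) and Mxra8 (0.93). Cilp2 and Chad both had C4b first (0.82 and 0.84), followed by Gas1 (0.81) for Cilp2 and Igkc (0.81) for Chad, and these values rest on few UMIs. Between members, Col12a1 and Col16a1 were the closest pair (0.97), and Meox1 and Chad were the least alike (0.37). Cilp2 was closer to Comp (0.80) than to Cthrc1 (0.60). Comp itself was closer to Col16a1 (0.85), Fap (0.84), Col12a1 (0.84) and Cthrc1 (0.83) than to Cilp2.

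Related genes were counted in lists, chosen with earlier results of these data known. The counts of these lists and of the marker lists below stand beside 19.3% of all tested genes that rose. The median over all genes was 0.09. Of 16 further genes of the activated fibroblast, 14 rose in low spots and none fell, with a median log2 fold change of 2.34. Timp1, an inhibitor of matrix metalloproteinases, had the highest value (3.24, adjusted p = 0.00803). Col3a1 (2.13, adjusted p = 0.0504) and Aspn (1.18, adjusted p = 0.12), a small proteoglycan, did not pass. Of 14 genes of TGF-beta signalling, 7 rose, with a median of 0.92. They were the ligands Tgfb1 (1.41), Tgfb2 (1.11) and Tgfb3 (1.93), the receptor Tgfbr1 (1.32), Skil (0.91), Ltbp3 (1.32) and Thbs1 (3.14), the last of which activates the latent ligand. The co-receptor Tgfbr3 had the lowest value (-0.57, adjusted p = 0.213). Of 10 resting fibroblast genes none rose on average over the sections and 1 fell, Gsn (-2.36, adjusted p = 0.00561), and the highest value was that of Mfap5 (1.37, adjusted p = 0.0644). The days differed in direction. The 10 genes summed to 1073, 3814, 5005 and 8913 CPM in low spots on days 1, 4, 7 and 14. In other spots the sums were 2398, 3066, 3955 and 2237 CPM.

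Of the 15 further cartilage and tendon matrix genes, 11 could be tested and 5 rose, with a median of 1.06. Acan, the large cartilage proteoglycan, had the highest value (3.75). Its 116 UMIs in all reached the minimum for testing only through the low spots, where it was high. No test of it is therefore given, though the count of 5 includes it. Col11a1 (3.32, adjusted p = 0.00932) and Fmod (2.67, adjusted p = 0.0428) followed, and Sox9 (1.20) and Scx (0.78) also rose. Prelp had the lowest (0.28, adjusted p = 0.684). Their days were not all those of Comp. Angptl7 had 0, 13.8, 29.2 and 112 CPM in low spots on days 1, 4, 7 and 14, and Cilp 8.68, 46.0, 62.4 and 170 CPM, both highest on day 14. Fmod had 0.668, 19.0, 158 and 156 CPM, and Col11a1 0, 86.7, 149 and 105 CPM, with day 7 not below day 14. Acan had 0.668, 30.2, 28.2 and 12.6 CPM, the last from 6 UMIs.

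Markers of other cells moved with the same spots. Of 8 macrophage markers 4 rose (median 1.297), and their sum in low spots ran from 460 to 2667 CPM against 164 to 479 CPM in other spots. Of 10 skeletal muscle genes 8 rose (median 3.80), and of 3 tested atrial genes 1 did, Sln. The skeletal muscle genes had 25650 UMIs in the low spots of day 7, and 7, 36 and 33 in those of days 1, 4 and 14. The 5 atrial genes had 233 UMIs there on day 7, and 10, 18 and 19 on the same other days. These rises therefore rest largely on the day 7 section. Of 5 smooth muscle genes 3 rose and 1 fell. Of 6 endothelial genes 1 fell and none rose, and no adipocyte gene of 3 tested or mesothelium gene of 2 tested passed. All 8 cardiomyocyte genes fell (median -3.18), which the choice of low spots by their Myh6+Myl2 share largely fixed in advance. The part of these cells in the members' values was not tested. Where skeletal muscle, adipocyte and mesothelium spots were left out, the same 5 members passed, and Fap passed as well (1.21, adjusted p = 0.0466).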

How the data were processed

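The authors deposited UMI counts per gene and spot for 4 sections, limited to spots under tissue and not normalized, made with Space Ranger 1.3.0 on mm10, with Seurat 4.1.1 also in the submitters' notes. Totals were 10983077 to 17315715 UMIs per section. Of the slide position barcodes, 1332 occurred in all 4 sections. Counts were summed per section over low spots (lowest 15% by Myh6+Myl2 share) and other spots, without spots with over 1% hemoglobin UMIs (8 genes). CPM is per 1000000 UMIs of a class. Intervals are exact Poisson, or exact conditional binomial for ratios, at 95%. No test between days was made with 1 section each. edgeR 4.0.16 (limma 3.58.1, R 4.3.3) fitted quasi-likelihood models with TMM and the section as a block to the 8 sums, with 3 residual degrees of freedom. P-values were adjusted by Benjamini-Hochberg over all 11621 genes with at least 100 UMIs. A second fit used Col1a1 UMIs as library size. The script was tested on simulated data. Members and lists were chosen with earlier results of these data known. Named genes are all members, and per list the highest, the lowest and those passing or failing against most of the list. Angptl7, Cilp and the remaining list genes were named after their values were seen. Alternatives were other spot classes (10%, 20%, 8 cardiomyocyte markers, 1000 UMIs per spot, no hemoglobin filter, other tissue left out), gene filters, scalings, denominators, DESeq2 1.42.0, and each section left out. A class of all spots under 0.5% Myh6+Myl2 was added after seeing the data. Gene positions are those of GENCODE vM21.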

Additional observations from a re-analysis of the deposited data

Results flagged for a closer look

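Meox1 was flagged because its ratio of low over other spots per Col1a1 UMI lay above 1 on 1 day and below 1 on the others, with exact intervals clear of 1. The ratio was 2.25 on day 1 (1.58 to 3.20), 0.290 on day 4 (0.212 to 0.390), 0.107 on day 7 (0.0660 to 0.166) and 0.0750 on day 14 (0.0371 to 0.138). Of the 11621 genes with at least 100 UMIs, 5.27% lay above 1 on day 1. On days 4, 7 and 14, 93%, 93% and 98.1% of them lay below 1, so values below 1 on those days were not particular to Meox1. With 1 section per day the difference between days was not tested. Col1a1 itself had 357 CPM in the low spots of day 1 and 10826 CPM in those of day 4, while Meox1 had 38.7 and 38.1 CPM.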

How the results depend on the processing

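The days rest on 1 section each, and Chad and Cilp2 on few UMIs. Relative to total UMIs, all 7 tested members kept a positive log2 fold change under the alternatives run. Genes higher in low spots numbered 2244 of 11621 tested, with 890 to 2200 when 1 section was left out. They numbered 1240 of only 4769 tested with a minimum of 1000 UMIs per gene, and 5774 with total UMIs in place of TMM. Genes lower numbered 2072, with 1040 to 2314, 1167 and 961 in the same cases. Of the members, 5 were higher, 3 without the section block, and 3 to 5 when 1 section was left out, the lowest without day 7.

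Per Col1a1 UMI, 4574 genes were called, and 0 to 8025 when 1 section was left out. The count was 0 without the block, 9147 with the lowest 20% of spots and 8444 with spots of at least 1000 UMIs. It was 8028 with spots ranked by 8 cardiomyocyte markers, and 2316 of only 4769 tested with genes of at least 1000 UMIs. It was 10150 with the added class under 0.5% Myh6+Myl2 and 1142 with resting fibroblast UMIs as denominator. No member was called in the main setting, 1 with the lowest 20%, 2 with the added class, 0 to 1 with a section left out and 5 with the resting fibroblast denominator. Under that denominator the log2 fold change turned to 1.29 for Fap, 0.97 for Meox1, 2.05 for Col8a1, 2.63 for Col16a1 and 2.93 for Comp. Gsn, the 1 gene of that list that fell in low spots, had the most UMIs of the list, at 75350, ahead of Dcn at 33111. The denominator thus leans on Gsn. Comp also turned to 0.86 without the block, 0.38 without day 1 (-0.39 without day 14) and 0.12 with Col1a2+Col3a1. The cause was not tested.

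In low spots, Cthrc1 on day 14 over day 4 had a log2 ratio of -1.52 in CPM, and -1.12 with the lowest 10% of spots, -1.18 with the added class, -2.72 with 20% and -3.13 with spots of at least 1000 UMIs. Comp had 3.06, and 1.98 and 1.15 in the last 2 settings. Per Col1a1 UMI, Cthrc1 had -0.52, -1.04 with Col1a2+Col3a1 and -2.74 with resting fibroblast UMIs, and Comp 4.06, 3.61 with the lowest 10%, 3.60 with the added class, 3.54 and 1.83. Per resting fibroblast UMI the ratio turned to -1.64 for Col12a1, -1.85 for Col8a1 and -1.40 for Col16a1. Col8a1 per Col1a1 UMI, at 0.37, also turned to -0.042 with the lowest 10%, -0.00054 without the hemoglobin filter, -0.53 with the added class and -0.15 with Col1a2+Col3a1, and Col12a1 in CPM, at -0.41, turned to 0.034 with the added class. The section block pairs the low and other spots of a section, and the labels number no replicates beyond it.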
